A study of Mus musculus with 8 samples.

Results

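Lncpint, Neat1, Malat1, Gas5, Snhg1, H19 and Meg3 are 7 long noncoding RNA genes that were followed in primary mouse hepatocytes (MPH) under endoplasmic reticulum stress (ERS). They are 7 of the 55304 gene symbols, and of the 13357 long noncoding ones, in GENCODE release M21 for the mm10 genome. They were chosen by the class and width of 1 region: Lncpint holds TSSs in one of the 3 widest regions of increased H3K27ac, and the other 6 were set beside it as well-studied nuclear and regulatory RNAs. The class and width of that Lncpint region are therefore given as a description. For each gene, the H3K27ac regions at its transcription start sites (TSSs), in its gene body and within 50 kb of its TSSs were taken from the processed files.

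MPH were prepared from adult male wild-type C57BL/6J mice (C57Bl6 in the labels) and kept for 4 h with 1 µM thapsigargin or with 0.04% DMSO as vehicle. Thapsigargin blocks the calcium pump of the endoplasmic reticulum and thereby provokes ERS. Chromatin carrying H3K27ac, an acetyl mark found at active promoters and enhancers, was immunoprecipitated and sequenced as 3 libraries per treatment from independent cell preparations, with 1 input library per treatment (8 libraries in all). No other agent or allele sets the groups apart. In such bulk samples, more acetylated cells and more acetylation per cell cannot be told apart. The authors deposited 3 lists of regions, H3K27ac UP (5508 regions), H3K27ac DOWN (3376) and H3K27ac unchanged (23312), which compare ERS with vehicle. The direction is that of the list names: of 10 textbook ERS-induced genes, such as Hspa5, Ddit3 and Herpud1, 9 had a TSS in an UP region, and 0 had one in a DOWN or unchanged region.

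The lists give a position and a class for each region and hold no read count, signal or p-value. The depth of each library is therefore unknown, no value below carries an error between experiments, and no comparison below is a test. UP and DOWN stand for a false discovery rate (FDR) of 0.05 or less over the bins of a peak, with UP bins at least 2 times as many as DOWN bins, or the reverse. Unchanged stands for an FDR above 0.05, which means that no change was called and not that none took place. Peaks with bins of both kinds in more even numbers are in none of the 3 classes. A gene without a region can thus be a gene without a peak, with a peak too close to input or with a peak of mixed class, and these cannot be told apart. All 7 hepatocyte markers looked up had a TSS in a region of some class. Of the markers of other liver cells, 0 of 4 for Kupffer cells, 1 of 4 for endothelial cells (Stab2), 0 of 4 for stellate cells, 1 of 4 for cholangiocytes (Sox9) and 0 of 3 for lymphocytes had one.

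Long noncoding RNAs act without being translated, and several of these 7 stay in the nucleus. Neat1 is the scaffold of paraspeckles, Malat1 gathers in nuclear speckles beside splicing factors, and Lncpint is induced by p53 and has been tied to the Polycomb complex PRC2. Gas5 and Snhg1 are host genes whose introns carry small nucleolar RNAs (snoRNAs), while their spliced exons are held low by nonsense-mediated decay. H19 and Meg3 are imprinted genes expressed from the maternal chromosome, and H19 is abundant in fetal liver and low in the adult organ.

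The promoters of the members with a TSS in a region are shown first, and at Lncpint they include TSSs of different class. Each window runs from 250 bases before a TSS to 50 bases after it on mm10 (RefSeq sequence of that assembly), written 5′ to 3′ on the strand of the gene with the TSS at base 251. At Lncpint, the first window is that of the 5′ end of the gene (chr6:31220439-31220738, minus strand) and lies in an unchanged region. The second is that of the most upstream of the Lncpint TSSs in the UP region (chr6:31088422-31088721, minus strand), with the AP-1 motif TGANTCA, the letters TATAAA of a TATA box on the opposite strand and the NRF2 motif TGACNNNGC in capitals.
Lncpint 5′ end: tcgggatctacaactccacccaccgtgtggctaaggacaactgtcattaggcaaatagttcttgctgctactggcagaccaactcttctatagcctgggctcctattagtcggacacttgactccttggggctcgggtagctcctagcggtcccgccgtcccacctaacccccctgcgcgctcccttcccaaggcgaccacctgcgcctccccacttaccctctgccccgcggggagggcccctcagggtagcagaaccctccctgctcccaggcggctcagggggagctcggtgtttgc
Lncpint TSS in the UP region: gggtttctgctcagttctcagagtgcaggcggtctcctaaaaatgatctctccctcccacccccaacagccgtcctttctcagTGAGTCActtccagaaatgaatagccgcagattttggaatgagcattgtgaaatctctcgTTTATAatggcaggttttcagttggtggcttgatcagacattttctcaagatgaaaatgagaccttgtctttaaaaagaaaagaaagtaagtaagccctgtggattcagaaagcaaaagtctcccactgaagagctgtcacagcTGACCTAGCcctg

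The 5′ end of Lncpint had a GC content of 62.7% and a ratio of observed to expected CpG of 0.529, and it held none of the motifs searched. The TSS in the UP region had a GC content of 45% and a CpG ratio of 0.264, and only 7.12% of the 12288 windows with a TSS in a region had as little GC or less. Its AP-1 motif began at base -167 from the TSS, its TATA letters at -107 and its NRF2 motif at 38 bases after it. AP-1 letters were present in 7.88% of all 55401 gene windows and in 5.42% of those with a TSS in a region, TATA letters in 16.9% and 6.99%, and NRF2 letters in 11.4% and 14.8%. The window in the UP region was thus the one with less GC and fewer CpG, whereas the median window with a TSS in a region had a GC content of 60.3% and a CpG ratio of 0.77.

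The snoRNA host genes had promoters of another kind. The Gas5 window (chr1:161034916-161035215, plus strand) is centred on its most frequent TSS, used by 4 of its 25 transcripts, and shows a CRE (TGACGTCA), 3 GC boxes (GGGCGG, either strand) and the run of pyrimidines at the TSS in capitals. The Snhg1 sequence (chr19:8723370-8723536, plus strand) is cut to 167 bases because the upstream part belongs to a transcript of Slc3a2. Its TSS is at base 118, and TATA letters on the opposite strand are in capitals.
Gas5: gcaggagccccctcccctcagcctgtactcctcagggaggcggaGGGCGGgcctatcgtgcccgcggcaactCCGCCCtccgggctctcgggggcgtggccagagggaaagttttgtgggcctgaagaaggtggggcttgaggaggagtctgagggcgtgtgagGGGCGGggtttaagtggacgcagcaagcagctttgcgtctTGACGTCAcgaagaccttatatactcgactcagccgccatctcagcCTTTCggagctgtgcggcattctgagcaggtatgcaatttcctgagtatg
Snhg1: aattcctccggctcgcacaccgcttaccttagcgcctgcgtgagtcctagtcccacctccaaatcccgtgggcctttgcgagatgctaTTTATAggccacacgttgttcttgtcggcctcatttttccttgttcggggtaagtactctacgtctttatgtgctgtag

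The Gas5 window had a GC content of 62% and a CpG ratio of 0.672, with the CRE at base -46 and a C followed by pyrimidines at the TSS. A CRE was present in 1.28% of all gene windows and in 3.5% of those with a TSS in a region, a GC box in 23.4% and 59.9%, and a pyrimidine start (C and 4 or more C or T) in 1.88% and 2.25%. The full Snhg1 window had a CpG ratio of 1.07, which 93.1% of the windows with a TSS in a region did not exceed. It held a GC box at -137, outside the sequence shown, and the TATA letters at -29. Of the members without a region, Neat1 held TATA letters at -31 and a GC box on the opposite strand at -144. Meg3 held a CRE at -62 and TATA letters at -30 and, on the opposite strand, at -34. H19 held a pair of GC boxes at -65 and -52, whereas Malat1 held no motif searched. The other motifs searched on both strands were the ATF4 and C/EBP composite (TGATGNAA, 4.75% of all windows), the ERSE (0.065%), the UPRE (TGACGTGG, 0.457%), the E-box (CACGTG, 5.4%), the NFIL3 motif (TTANGTAA, 2.72%), the CCAAT box (CCAAT, 38.2%) and the p53 site (0.00542%). None of the ATF4, ERSE, UPRE, E-box, NFIL3 and p53 letters was found in a window of the 7 genes, and a CCAAT box was found at H19 and Meg3 only. The NRF2 letters can overlap those of AP-1, and the ERSE contains a CCAAT box. Such matches describe letters in these windows and say nothing of whether a factor bound there.

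Of the 7 genes, 3 had a TSS in an H3K27ac region (Lncpint, Gas5 and Snhg1), and 4 had none (Neat1, Malat1, H19 and Meg3). Among all gene symbols 22.2% had a TSS in a region, and among long noncoding genes 14% did. All 3 had TSSs in an unchanged region, as did 73.7% of all genes and 68% of long noncoding genes with a TSS in a region. Lncpint alone also had TSSs in an UP region, against 21.4% of such genes overall and 20.8% of long noncoding ones. The 7 genes were chosen through this region, so nothing is read from that count. The number with a TSS in a DOWN region was 0, against 8.91% of all genes and 11.6% of long noncoding genes with a TSS in a region. With 3 genes, a count of 0 is close to these shares.

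Lncpint (ENSMUSG00000044471.12, a lincRNA) spans chr6:31082565-31220488 on the minus strand, which is 137924 bp with 16 annotated transcripts. The 5 transcripts that start nearest to the 3′ end of the gene have their TSSs in the UP region chr6:31070223-31103990, 33768 bp wide. This was the third widest of the 5508 UP regions, after regions of 39094 bp and 34265 bp, and the next below it had 33003 bp. The UP region lies over 21426 bp of Lncpint and reaches 12342 bp beyond its 3′ end, and it also holds a TSS of Gm13833, a lincRNA on the other strand. The 8 transcripts that start at the 5′ end have their TSSs in the unchanged region chr6:31215207-31223157, 7951 bp wide. The remaining 3 transcripts share a TSS at position 31166516 that lies in no region. The annotated 5′ end and the 3′-proximal TSSs of Lncpint were thus of different class, and whether H3K27ac changed by different amounts there was not tested.

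The unchanged region at the 5′ end is shared with 2210408F21Rik, a noncoding transcript on the opposite strand whose TSS is 41 bp away. At 7951 bp it was as wide as or wider than 99.2% of unchanged regions and 98.4% of unchanged regions that hold a TSS, whose median width was 1530 bp. Both ends of Lncpint therefore carried broad H3K27ac regions.

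The gene body of Lncpint overlapped 15 regions, 3 UP, 0 DOWN and 12 unchanged. In order from the 5′ end, the UP regions were 8738 bp, 13025 bp and 33768 bp wide and began 68941, 88530 and 116498 bp downstream of the gene's 5′ end. All 3 UP regions lay in the 3′ part of the gene, whereas the first 9 regions from the 5′ end were unchanged. The 12 unchanged regions were between 620 and 12879 bp wide with a median of 1850 bp, and 1 of them was wider than the narrowest UP region. This one, chr6:31105042-31117920, sits between the 13025 bp and the 33768 bp UP regions with gaps of 1013 and 1051 bp on its sides. UP regions covered 31.3% of the gene body (43189 bp) and unchanged regions 32.3% (44575 bp), together 63.6% of its length.

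**Figure D1:**
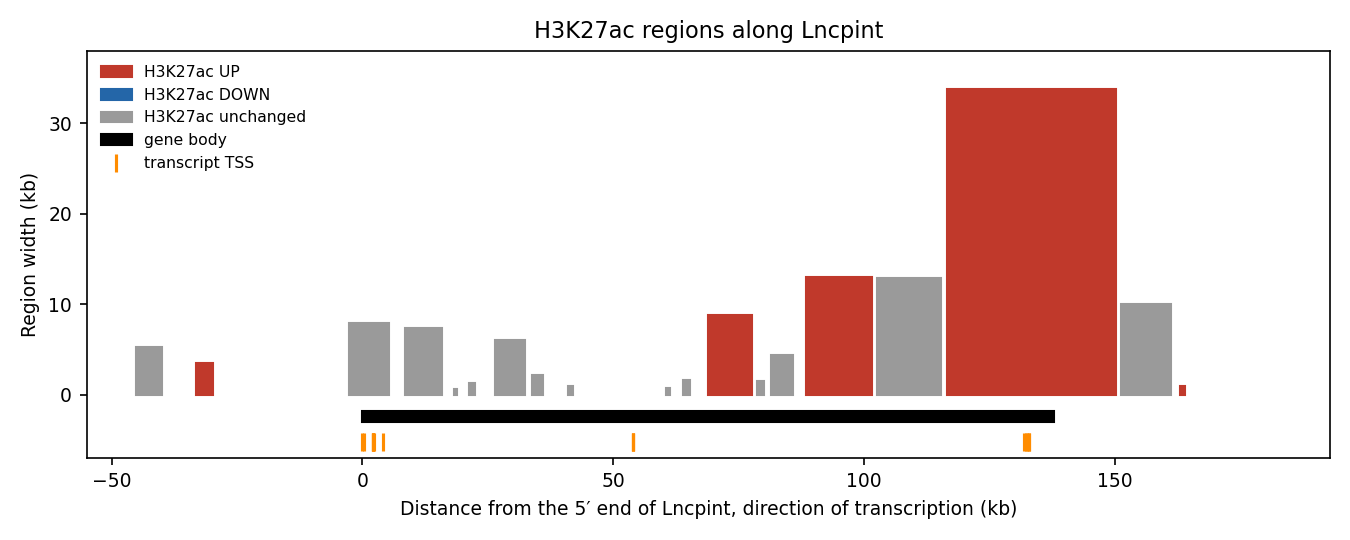
H3K27ac regions along Lncpint. The x axis is the distance from the 5′ end of the gene in kb in the direction of transcription and the y axis is the width of each region in kb, with UP regions in red, unchanged regions in grey, the gene body as a black bar and TSSs as orange ticks. The UP regions in the gene body widen from 8738 to 33768 bp toward the 3′ end, the 5′ end lies in an unchanged region, and no DOWN region is present.

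Regions at Lncpint were closely spaced, with gaps between neighbours in the gene body from 976 to 18633 bp and a median of 2476.5 bp. Within 50 kb of a Lncpint TSS there were 19 regions, 5 UP, 0 DOWN and 14 unchanged, and 99.9% of all genes had as many or fewer. The TSSs of Lncpint span 132884 bp, so that this search covered 233 kb, against 102 to 117 kb for the other 6 genes. Counted from the 5′ end alone, Lncpint had 9 regions within 50 kb, 1 UP and 8 unchanged, and 98.8% of gene records had as many or fewer. The UP regions outside the gene body were 993 bp wide (chr6:31056398-31057390) on the 3′ side and 3450 bp wide (chr6:31250261-31253710) on the 5′ side, with a median of 1621.5 bp over all UP regions. An unchanged region of 10014 bp (chr6:31059165-31069178) follows the widest UP region after a gap of 1044 bp and holds Mir29a and Mir29b-1, 2 microRNA genes of the miR-29 family on the strand of Lncpint. The nearest DOWN region was 93072 bp upstream of a Lncpint TSS. Of the 125 genes with 15 or more regions within 50 kb, 24.8% had no DOWN region, 31 genes in all with Lncpint among them.

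The sequence of the widest Lncpint region was compared with those of the other regions by the number of motif hits per kb. AP-1 letters occurred 18 times in its 33768 bp (0.533 per kb), between the values over all UP regions (0.586) and all unchanged regions (0.444), with 0.373 over all DOWN regions. ATF4 and C/EBP composite letters occurred 6 times (0.178 per kb, against 0.215 over all UP and 0.148 over all unchanged regions), and neither the p53 site nor the ERSE occurred in it. NFIL3 letters occurred 1 time in the widest UP region (0.0296 per kb) and 12 times in the 12 unchanged regions of the gene body (0.254 per kb), with 0.109 and 0.11 per kb over all UP and all unchanged regions. The GC box was rare in both, 0.178 and 0.381 per kb. These densities rest on few hits and describe the letters alone.

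Gas5 (ENSMUSG00000053332.13) and Snhg1 (ENSMUSG00000108414.1) were alike in having a compact gene under a single unchanged region. Gas5 spans chr1:161034422-161038539 on the plus strand, 4118 bp, and all of its 25 transcripts start in the unchanged region chr1:161034083-161037880, 3798 bp wide, which covers 84% of the gene. The region is shared with Zbtb37, which encodes a zinc finger protein and starts on the other strand 80 bp away. Of the 10 snoRNA entries in Gas5, such as Snord47, Snord78 and Snord80, 8 lie in the region and Snord47 lies beyond its end. This width was as large as or larger than that of 93.4% of unchanged regions and 88.5% of those with a TSS.

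Snhg1 spans chr19:8723475-8726443 on the plus strand, 2969 bp, and 16 of its 18 transcripts start in the unchanged region chr19:8722629-8725296, 2668 bp wide, which covers 61.4% of the gene. The other 2 transcripts start downstream of it, in no region. The region is shared with Slc3a2, which encodes the heavy chain of an amino acid transporter and starts on the other strand 106 bp away. Of the 8 snoRNA entries in Snhg1, 5 lie in the region and 3, Snord22 among them, lie beyond it. At 2668 bp this was the narrowest of the 4 regions at a member TSS, yet as wide as or wider than 85.7% of unchanged regions and 77.3% of those with a TSS.

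**Figure D2:**
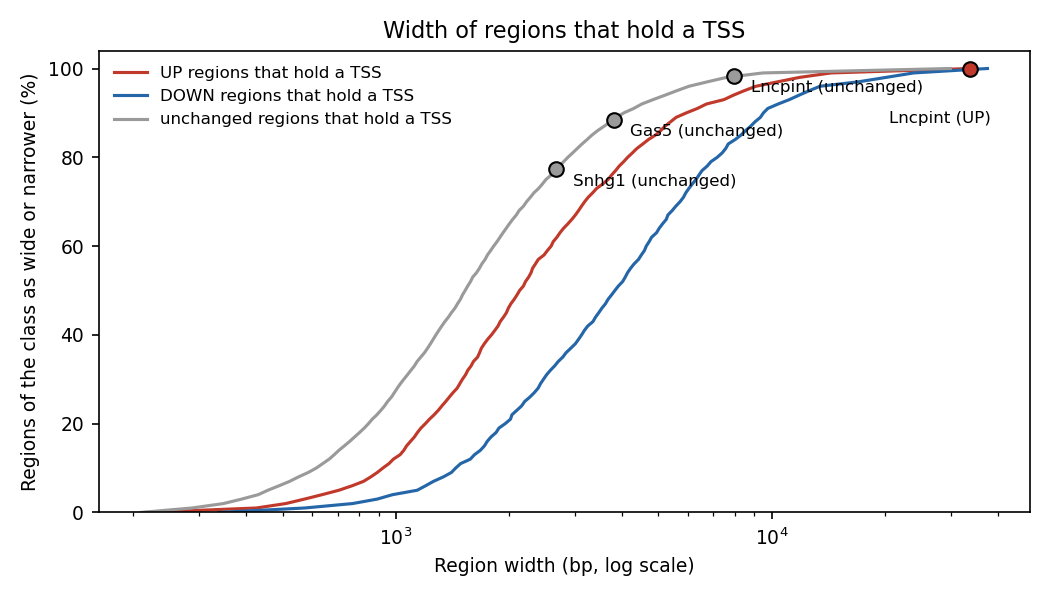
Width of the regions at the TSSs of Lncpint, Gas5 and Snhg1. The x axis is the region width in bp on a log scale and the y axis is the percentage of regions of the same class that hold a TSS and are as wide or narrower, with a line for each class and a point for each of the 4 regions. The widths of the unchanged regions run from 2668 bp at Snhg1 through 3798 bp at Gas5 to 7951 bp at Lncpint, and the UP region at Lncpint has 33768 bp.

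UP regions were found near both host genes but not at their TSSs. The genes at these neighbouring regions, and at those of the genes below, are named because they hold a TSS there and were picked after the values were seen. Gas5 had 5 regions within 50 kb, 1 UP, 0 DOWN and 4 unchanged. The UP region, 2052 bp wide, lies 32495 bp away and holds a TSS of Cenpl, a centromere protein gene. The unchanged regions of Gas5 include one of 4029 bp with a TSS of Serpinc1, the gene of antithrombin.

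Snhg1 had 9 regions within 50 kb, 3 UP, 0 DOWN and 6 unchanged, and 97.9% of all genes had as many or fewer. The nearest UP region (chr19:8712319-8713970, 1652 bp) lies 9505 bp upstream and holds another TSS of Slc3a2, so that Slc3a2 had TSSs in an UP and in an unchanged region while Snhg1 had them in the unchanged one alone. The other UP regions hold TSSs of Stx5a, a syntaxin of vesicle traffic at the Golgi apparatus (chr19:8740810-8743928, 3119 bp), and Nxf1, an mRNA export factor (chr19:8755146-8757696, 2551 bp). The nearest DOWN region was 228968 bp from a Gas5 TSS and 321159 bp from a Snhg1 TSS.

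Neat1 (ENSMUSG00000092274.3, chr19:5824708-5845478, minus strand, 20771 bp) and Malat1 (ENSMUSG00000092341.3, chr19:5795690-5802672, minus strand, 6983 bp) lie side by side, and neither had a region at any of its 4 TSSs or in its gene body. Both are in the same stretch without a region, chr19:5771532-5873199, which is 102 kb long. Of the 32175 stretches between neighbouring regions, 86.1% were as long or shorter. The stretch holds TSSs of 10 genes, of which Frmd8 is the protein-coding one. The lists cannot say whether these promoters had no H3K27ac peak or whether a peak there was left out.

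The first region upstream of Neat1 (chr19:5873200-5873622, 423 bp) was unchanged and lies 27722 bp from its nearest TSS, with a TSS of Frmd8 in it. Beyond a second unchanged region of 741 bp, the UP region chr19:5877409-5879219 (1811 bp) lies 31931 bp upstream of Neat1 and holds a TSS of Slc25a45, a mitochondrial carrier gene. Downstream of Malat1, an UP region of 988 bp lies 25421 bp away and was the only region within 50 kb of Malat1. The stretch around Neat1 and Malat1 was thus bordered by an UP region on the Malat1 side and by unchanged regions on the Neat1 side. The nearest DOWN region was 157909 bp from a Malat1 TSS and 188969 bp from a Neat1 TSS.

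H19 (ENSMUSG00000000031.16, chr7:142575529-142578143, minus strand, 2615 bp) had no region at its 7 TSSs or in its gene body, which holds Mir675. Its single region within 50 kb was unchanged (chr7:142532921-142535932, 3012 bp), lies 40606 bp downstream and holds a TSS of Mrpl23, a mitochondrial ribosomal protein gene. On the other side the stretch without a region ran for 478 kb in all and was as long as or longer than 96.9% of such stretches. It holds TSSs of 7 protein-coding genes, among them the imprinted growth factor Igf2, Ins2 and Ascl2. The nearest UP and DOWN regions lay 490288 and 471166 bp upstream of H19.

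Meg3 (ENSMUSG00000021268.17, chr12:109541001-109571726, plus strand, 30726 bp) was the only one of the 7 with 0 regions within 50 kb of its 11 TSSs, as were 40.9% of all genes. The stretch without a region was 732 kb long, longer than or equal to 98.1% of such stretches, and holds the TSSs of 38 genes. Among these are the imprinted genes Dlk1, Rtl1 and Rian and many microRNA genes of the same cluster, with Mir770 and Mir1906-1 in Meg3 itself. The nearest region of any class was unchanged and 284 bp wide, 77435 bp downstream, and the nearest UP and DOWN regions were 491943 and 604373 bp away. The stretches around H19 and Meg3 were thus each longer than the single stretch of 102 kb that Neat1 and Malat1 share. Whether this goes with imprinting was not tested.

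**Figure D3:**
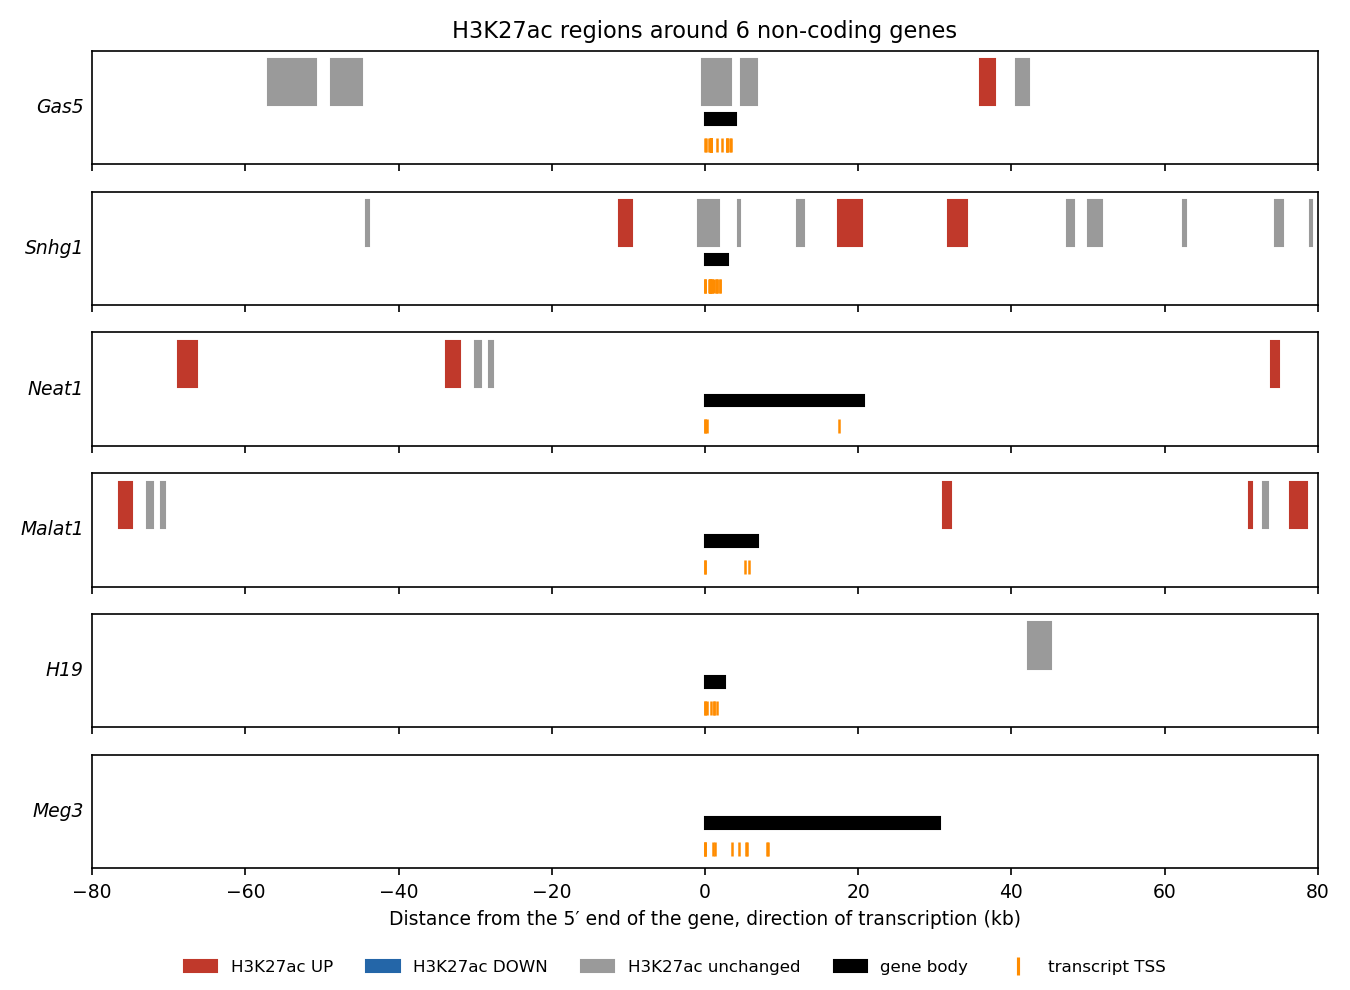
H3K27ac regions around Gas5, Snhg1, Neat1, Malat1, H19 and Meg3. The x axis is the distance from the 5′ end of each gene in kb in the direction of transcription, with UP regions in red, unchanged regions in grey, gene bodies in black and TSSs as orange ticks. The TSSs of Gas5 and most of those of Snhg1 lie in an unchanged region, and the other 4 genes have none at a TSS.

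Over the 7 genes, 6 had a region within 50 kb of a TSS, as did 59.1% of all genes and 59.2% of long noncoding genes. Of the 6, 5 had at least 1 UP region there and 0 had a DOWN region. Among all 32683 genes with a region within 50 kb, 42.6% had an UP region, 26.2% had a DOWN region and 34.7% had more UP than DOWN regions. Among the 7912 long noncoding genes of this kind the shares were 40.3%, 26.6% and 33.1%. The 6 genes had 38 distinct regions, 11 UP (28.9%), 0 DOWN and 27 unchanged, and 17.1% of all regions were UP and 10.5% DOWN. Lncpint and Snhg1 together gave 8 of the 11 UP regions. The UP counts include the Lncpint region by which the genes were chosen. Nothing is therefore read from their size beside the shares over all genes and regions. Neat1 and Malat1 lie in the same stretch of chromosome 19, so that their neighbourhoods are not independent. Within 10 kb, only Lncpint and Snhg1 had more UP than DOWN regions, and within 100 kb Lncpint gained a DOWN region while Neat1 and Malat1 each had 4 UP and 0 DOWN regions.

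**Figure D4:**
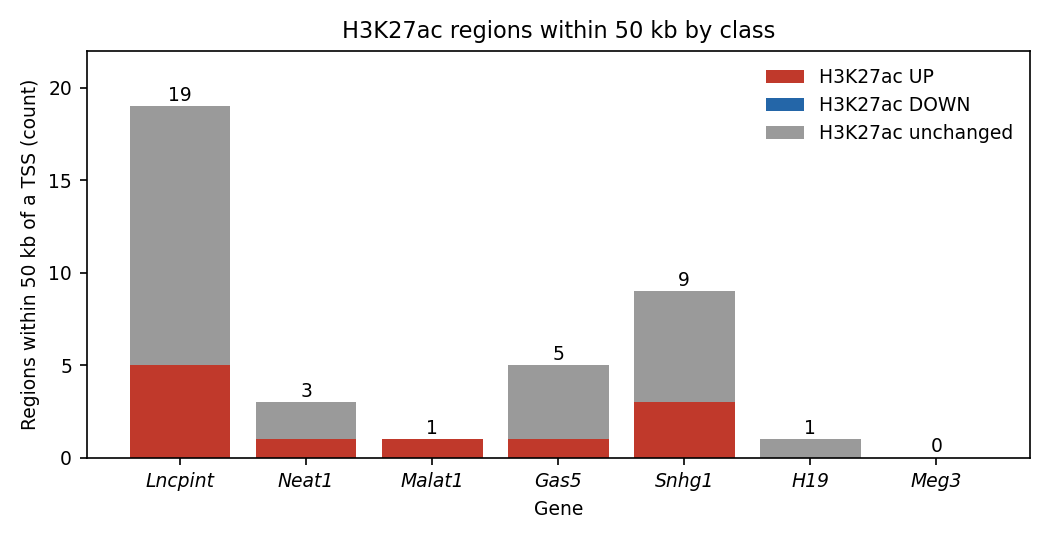
Number of H3K27ac regions within 50 kb of any TSS of each gene. Bars start at 0 and stack UP regions in red and unchanged regions in grey, with the total above each bar. Lncpint has 19 regions, Snhg1 has 9 and Meg3 has 0, and no gene has a DOWN region.

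Gene lists tied to the 7 RNAs were then looked up in the same way. Among long noncoding genes 14% had a TSS in a region. Of these, 20.8% had one in an UP, 11.6% in a DOWN and 68% in an unchanged region. Of the 72 genes of noncoding type that hold a snoRNA on their strand, 33 (45.8%) had a TSS in a region, 5 UP (15.2%), 2 DOWN (6.06%) and 26 unchanged. The UP ones were 2410006H16Rik, 2700038G22Rik, 2900076A07Rik, Gm29170 and Zfas1, and the DOWN ones were Gm16351 and Snhg15. The unchanged ones include 1110038B12Rik (4265 bp) and 1810032O08Rik (1231 bp), and also Cct6a, named after its values were seen, which encodes a chaperonin subunit but is typed as a processed transcript in this release. Of the 14 Snhg genes, 11 had a TSS in a region, 0 UP, 1 DOWN (Snhg15, 4133 bp) and 10 unchanged, such as Snhg10 (3552 bp) and Snhg12 (2407 bp). The majority of host genes with a region were unchanged, and so were 73.7% of all genes with a TSS in a region. Gas5 and Snhg1 are themselves counted among the unchanged host genes, and Snhg1 among the unchanged Snhg genes.

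Among protein-coding genes, 44.7% had a TSS in a region, and of these 21.7% had one in an UP, 8.31% in a DOWN and 74.9% in an unchanged region, the shares against which the next lists are given. All 12 genes of paraspeckle proteins, the partners of Neat1, had a TSS in a region, and 10 were unchanged. Rbm14, which encodes an RNA-binding protein needed for paraspeckles, lay in an UP region of 2645 bp, and Sfpq, which encodes a core paraspeckle protein, in a DOWN region of 1438 bp. All 10 genes of nuclear speckle and splicing proteins, which meet Malat1 in speckles, had a TSS in a region, 3 UP, 0 DOWN and 7 unchanged. The UP ones were the splicing factor genes Srsf1 (2566 bp), Srsf2 (2608 bp) and Srsf5 (2523 bp).

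Of the 7 PRC2 genes, 6 had a TSS in a region. The histone chaperone genes Rbbp4 (2059 bp) and Rbbp7 (2784 bp) lay in UP regions, Jarid2, which encodes a substoichiometric partner, had TSSs in a DOWN and in an unchanged region, and the core subunit genes Eed, Ezh2 and Suz12 were unchanged. All 9 p53 pathway genes had a TSS in a region, 1 UP, 5 DOWN and 3 unchanged. The DOWN ones were the p53 targets Bax (1184 bp), Bbc3 (7657 bp), Btg2 (9680 bp), Ccng1 (1730 bp) and Mdm2 (3849 bp), and the UP one was Sesn2 (1804 bp), a sestrin. Lncpint is itself a p53 target, but it was chosen by its UP region. Nothing is therefore read from its class beside those of these 9 genes. Of the 10 genes of nonsense-mediated decay, 9 had a TSS in a region, 8 of them in an unchanged one, and Smg5, which acts after Upf1, had a TSS in an UP region of 3716 bp.

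Of 15 genes of the imprinted clusters that hold or neighbour H19 and Meg3, 4 had a TSS in a region (26.7%). Among all genes 22.2% had one, and of these 21.4% were UP and 8.91% DOWN. Kcnq1ot1 (2608 bp), a noncoding RNA, and Nap1l4 (1727 bp), a histone chaperone gene, lay in UP regions, Slc22a18 (5329 bp), a transporter gene, in a DOWN region and Phlda2 (1315 bp) in an unchanged one. All 4 are on the side of the Kcnq1ot1 cluster, and none of Dlk1, Rtl1, Rian, Mirg, Begain and Dio3 near Meg3 had a TSS in a region. With so few genes, nothing is read from the difference between the clusters. Of 30 other studied noncoding RNAs, 28 matched the annotation and 18 of these had a TSS in a region, 3 UP (Kcnq1ot1, Pvt1 and Zfas1), 0 DOWN and 15 unchanged. The UP share of 16.7% is near the 20.8% of long noncoding genes with a TSS in a region, of which 11.6% were DOWN. Pvt1, the neighbour of Myc, lay in an UP region of 8740 bp.

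**Figure D5:**
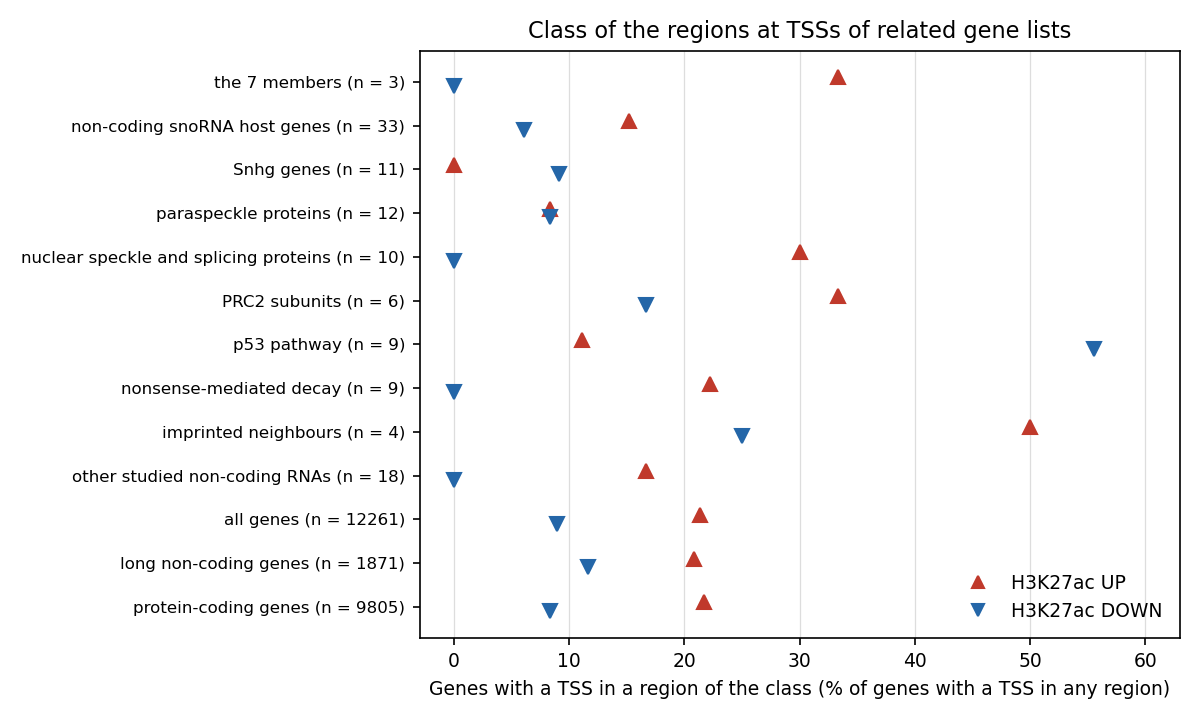
Class of the regions at the TSSs of the 7 genes and of related gene lists. The x axis is the percentage of genes with a TSS in an UP (red triangles) or DOWN (blue inverted triangles) region out of those with any region at a TSS, whose number stands beside each list. For all genes the shares are 21.4% UP and 8.91% DOWN, and among p53 pathway genes 5 of 9 have a TSS in a DOWN region.

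The study's own lists place some of these RNAs on both sides of its comparison of liver-identity genes and UBQ genes. Both were defined by broad H3K4me3, a promoter mark, in mouse liver, and UBQ domains are those also found in other tissues. Lncpint, Neat1 and Malat1 are in its list of UBQ genes, of which 127 of the 636 matched by symbol (20%) had no TSS in a region. Neat1 and Malat1 belong to these. Gas5 is in its list of liver-identity genes, of which 56 of 596 (9.4%) had no TSS in a region. Gas5 is not one of them, since its 25 transcripts start in the unchanged region. Snhg1, H19 and Meg3 are in neither list.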

How the data were processed

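H3K27ac ChIP-seq libraries of MPH (3 for each treatment, with 1 input each) were mapped by the authors with Bowtie to mm10, and duplicates and blacklisted regions were removed. The release numbers of Bowtie and MACS2 are not given in the sources used here. The authors called broad peaks with MACS2 on pooled libraries, extended reads to 200 bp, counted them in 150 bp bins, filtered these against input (prior count of 5), normalized by loess, fitted a quasi-likelihood model paired by experiment with csaw and merged the results of all bins with 75 bp or more in a peak. Loess normalization removes a shift of H3K27ac shared by all regions, and broad peaks join neighbouring elements into 1 width. The deposited values are the first and last positions of regions (base pairs), with no other measurement, and the direction is that of the names of the lists. The authors' code orders the treatments so that its coefficient could be read the other way round, and ERS-induced genes, chosen after earlier results were known, were looked up as a check.

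TSSs were those of the 141730 transcripts in GENCODE release M21, which fits the chromosome lengths of mm10. The 5′ end of the gene, basic transcripts, a margin of 1 kb, regions of at least 1 kb and distances of 10 and 100 kb were alternatives. The genes named are the 7, genes that share their regions, small RNAs in or near them as up to 3 examples, and up to 4 genes in alphabetical order for each class of each list. Where a class held 5 or fewer genes of a list, some or all were named after their values were seen. Genes, lists and rules were chosen with earlier results of these data known. No test was made. Some genes at these regions or in the lists are not reported here. Motif positions count from the TSS, with bases before it negative. Counting functions were tested on simulated data. Python 3.11.15, numpy 2.4.6, scipy 1.17.1 and matplotlib 3.10.9 were used.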

Additional observations from a re-analysis of the deposited data

How the results depend on the processing

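Of 27 recomputed values, 18 kept to the reported value (counts within 1.5 times, percentiles within their 95% Wilson interval). These limits are yardsticks only. Each percentile is taken over all regions of its class, so its interval measures no error between experiments. With the annotated 5′ end of each gene alone, the genes with a TSS in an UP region fell from 1 to 0, because the Lncpint TSSs in the UP region are not at its 5′ end. Within 10 kb, the genes with more UP than DOWN regions fell from 5 to 2, and with the 5′ end alone, a setting chosen after seeing the data, they were 5 again. No member had a TSS in a DOWN region under any of the 4 settings of that count. Against regions of the same class that hold a TSS, the width percentile moved from 99.96 to 100 for the UP region at Lncpint, from 99.22 to 98.36 for its unchanged region, from 93.36 to 88.55 for Gas5 and from 85.68 to 77.25 for Snhg1. Against regions of any class that hold a TSS, the last 3 moved to 96.26, 82.84 and 70.44. No paired analysis was possible because the lists hold no value per library. Leaving out a replicate and a stricter threshold on the authors' FDR could not be run for the same reason. The depth is unknown, so a gene without a region cannot be called a gene without H3K27ac. Region classes say nothing of the RNA levels of the 7 genes, which are not analysed here.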
